A study of Mus musculus with 24 samples.

Results

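The aminoacyl-tRNA synthetases are the enzymes that load each amino acid onto its transfer RNAs. The 36 synthetase genes examined were the rows of the count table whose gene symbol, taken as the name before the first separator of the annotation, is on a fixed list of 20 enzymes of the cytosol (Aars, Cars, Dars, Eprs, Farsa, Farsb, Gars, Hars, Iars, Kars, Lars, Mars, Nars, Qars, Rars, Sars, Tars, Vars, Wars and Yars) and 16 enzymes of mitochondria (Aars2, Cars2, Ears2, Fars2, Hars2, Iars2, Lars2, Mars2, Nars2, Pars2, Rars2, Sars2, Tars2, Vars2, Wars2 and Yars2). All 36 were found among the 24537 genes of the table and all 36 passed the filter on low counts. The mRNA of whole muscle was sequenced from 2-month-old mice after doxycycline (Dox) in the drinking water over 1 of 3 periods, 2.5 days, 5.5 days and 8.5 days. Acta1-Cre+/4Fhet mice (Cre+) carry a Cre driven by the skeletal actin promoter, which removes a stop cassette in myofibers so that rtTA is made there and Dox switches on 4F, the reprogramming factors Oct4, Sox2, Klf4 and Myc. Acta1-Cre-/4Fhet mice (Cre-) were the controls, had the same Dox and also carry 1 copy of the 4F cassette. The extensor digitorum longus (EDL), a fast muscle, and the soleus (SOL), a slow muscle, were each profiled with 2 libraries per genotype and day, giving 24 libraries. These are bulk samples, so fewer cells of a type and less RNA per cell cannot be told apart.

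A synthetase recognizes its amino acid and its tRNAs, joins the pair, and so sets how the genetic code is read; each amino acid has an enzyme of its own. Mitochondria use a separate set encoded in the nucleus and imported, except that Gars and Kars each serve both compartments, and that mitochondrial glutamine tRNA is first charged with glutamate by Ears2 and then converted by an amidotransferase made of Qrsl1, Gatb and Gatc. Of the cytosolic enzymes, Dars, Eprs, Iars, Kars, Lars, Mars, Qars and Rars are held together in the multi-synthetase complex by the scaffold proteins Aimp1, Aimp2 and Eef1e1, and Eprs joins the enzymes for glutamate and proline in 1 chain. Several cytosolic synthetase genes are known targets of the transcription factor Atf4, which acts when amino acids are short.

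The promoters of 27 of the 36 genes were present in the RefSeq set used (13 cytosolic and 14 mitochondrial; no entry for Cars, Hars, Lars, Nars, Rars, Vars, Wars, Hars2 and Pars2). Each spans 250 bases before to 50 after the transcription start and was searched on both strands for CACGTG, the E-box that Myc can bind and that reads the same on both strands, and TGATGNAA, the core of the composite element that Atf4 can bind with a C/EBP factor. CACGTG was present in 4 of 13 cytosolic promoters (30.8%; Aars, Farsb, Iars and Tars), in 1 of 14 mitochondrial promoters (7.14%; Ears2) and in 8.15% of the 18144 promoters searched. TGATGNAA was present in 5 of 13 cytosolic promoters (38.5%; Aars, Gars, Iars, Tars and Yars), in 0 of 14 mitochondrial promoters and in 3.52% of all. A match describes the letters only. The promoters of Aars, Iars and Tars are shown because they hold both sequences, and those of Kars and Tars2 because these genes rose in Cre+ EDL on both days and hold neither; all are from RefSeq on GRCm38.p6, 5′ to 3′ on the gene's strand, with CACGTG and TGATGNAA, the latter on either strand, in capitals.
Aars, chr8:111033592-111033891, plus strand: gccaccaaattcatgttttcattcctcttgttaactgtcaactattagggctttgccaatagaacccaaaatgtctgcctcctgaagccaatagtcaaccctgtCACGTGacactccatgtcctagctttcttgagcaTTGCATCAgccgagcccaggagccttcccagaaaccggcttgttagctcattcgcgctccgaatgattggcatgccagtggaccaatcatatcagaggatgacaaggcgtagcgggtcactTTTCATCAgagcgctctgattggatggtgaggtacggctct
Iars, chr13:49681880-49682179, plus strand: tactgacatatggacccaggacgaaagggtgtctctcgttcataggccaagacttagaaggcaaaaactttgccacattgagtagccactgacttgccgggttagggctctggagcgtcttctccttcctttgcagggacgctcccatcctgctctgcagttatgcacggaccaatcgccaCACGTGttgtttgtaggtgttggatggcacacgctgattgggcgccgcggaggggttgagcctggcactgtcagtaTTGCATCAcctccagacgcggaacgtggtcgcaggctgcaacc
Tars, chr15:11399609-11399908, minus strand: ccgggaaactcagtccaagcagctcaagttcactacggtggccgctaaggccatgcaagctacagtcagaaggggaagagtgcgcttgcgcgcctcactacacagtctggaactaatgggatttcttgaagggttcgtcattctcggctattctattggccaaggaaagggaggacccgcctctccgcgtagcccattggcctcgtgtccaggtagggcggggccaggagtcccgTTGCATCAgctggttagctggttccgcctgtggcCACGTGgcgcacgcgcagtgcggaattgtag
Kars, chr8:112011305-112011604, minus strand: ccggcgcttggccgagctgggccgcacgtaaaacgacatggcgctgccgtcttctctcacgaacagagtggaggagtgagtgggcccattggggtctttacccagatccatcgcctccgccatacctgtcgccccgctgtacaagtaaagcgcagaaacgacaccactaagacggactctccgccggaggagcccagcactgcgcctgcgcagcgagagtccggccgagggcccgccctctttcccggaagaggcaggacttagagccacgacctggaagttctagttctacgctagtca
Tars2, chr3:95754928-95755227, minus strand: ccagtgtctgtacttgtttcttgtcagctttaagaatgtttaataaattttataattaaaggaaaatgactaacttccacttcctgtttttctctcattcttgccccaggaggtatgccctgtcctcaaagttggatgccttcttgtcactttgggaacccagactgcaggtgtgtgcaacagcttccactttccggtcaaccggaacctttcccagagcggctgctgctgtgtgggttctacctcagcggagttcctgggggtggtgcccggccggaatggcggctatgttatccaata
In Aars the E-box lay 146 bases before the start and TGATGNAA lay 112 bases before and 9 bases after it. Iars held the E-box 69 bases before and TGATGNAA 7 bases after its start, whereas in Tars TGATGNAA lay 15 bases before and the E-box 19 bases after.

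The libraries held 36088781 to 54679082 counts, so 3 counts in a library correspond to 0.0549 to 0.0831 CPM (a count scaled by its library size), well under every synthetase. The induced factors were checked first. Pou5f1 (Oct4) lay between 0.0177 and 0.0941 RPKM (CPM per kilobase of exon, with library sizes scaled by TMM) in the 4 Cre- EDL libraries of 2.5 and 8.5 days, and at 15.3 and 58.5 RPKM in Cre+ at 2.5 days and 66.4 and 53.6 at 8.5 days. All 4 factors rose in Cre+ EDL on both days, with log2 changes of 4.12 and 4.65 for Myc. At 5.5 days Pou5f1 reached 1.07 and 29.4 RPKM in Cre+ EDL and 0.0812 and 0.400 in Cre+ SOL, so 3 of these 4 libraries were well below the other Cre+ libraries of their muscle, and the main comparisons use the 16 libraries of 2.5 and 8.5 days. Fast fiber markers were lower in Cre+ EDL at 2.5 days for 4 of 6 genes (Myh1, Tnnt3, Tnni2 and Pvalb; summed level of all 6 90200 to 104000 CPM in Cre- and 49400 to 76200 in Cre+; none at 0) and at 8.5 days for 2 of 6 (Tnnt3 and Tnni2; 78100 to 108000 CPM in Cre- and 71700 to 72100 in Cre+). Endothelial markers were lower for 3 of 5 genes in EDL at 2.5 days (267 to 302 CPM in Cre- and 244 to 255 in Cre+). Of all genes, 10.2% were lower in EDL at 2.5 days and 6.5% at 8.5 days. The counts of lower genes rest on the TMM scale, whereas the CPM sums are scaled by library size alone. The part of fiber and endothelial markers in the changes below was not tested.

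In Cre+ EDL, few synthetases changed, and nearly all that did rose. At 2.5 days, Vars, Gars and Kars in the cytosol and Tars2, Pars2 and Iars2 in mitochondria rose, and mitochondrial Sars2 fell. At 8.5 days, Vars, Kars and Qars in the cytosol and Tars2 in mitochondria rose, and no synthetase fell. A gene was called changed at a Benjamini-Hochberg adjusted p under 0.05 over all genes tested (edgeR quasi-likelihood test) and a log2 change over 0.5 in size. At 2.5 days 7 of 36 synthetases passed (19.4%) against 24% of all 15372 genes, and at 8.5 days 4 of 36 (11.1%) against 14.1%, so the family was not called more often than other genes. At 2.5 days 6 of 36 rose against 13.8% of all genes and 1 fell against 10.2%; at 8.5 days 4 rose against 7.63%. The median log2 change at 2.5 days was 0.27 for the cytosolic genes, 0.097 for the mitochondrial genes and -0.047 for all genes; at 8.5 days these were 0.14, -0.0017 and -0.017. When only library size was used for scaling, without TMM, the medians shifted up to 0.61, 0.43 and 0.28 at 2.5 days and to 0.32, 0.18 and 0.16 at 8.5 days, 12 cytosolic genes rose at 2.5 days, and calls over all genes went from 2118 higher and 1566 lower to 4207 and 610 at 2.5 days and from 1173 and 999 to 1956 and 542 at 8.5 days. Changes below are relative to the TMM scale.

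**Figure D1:**
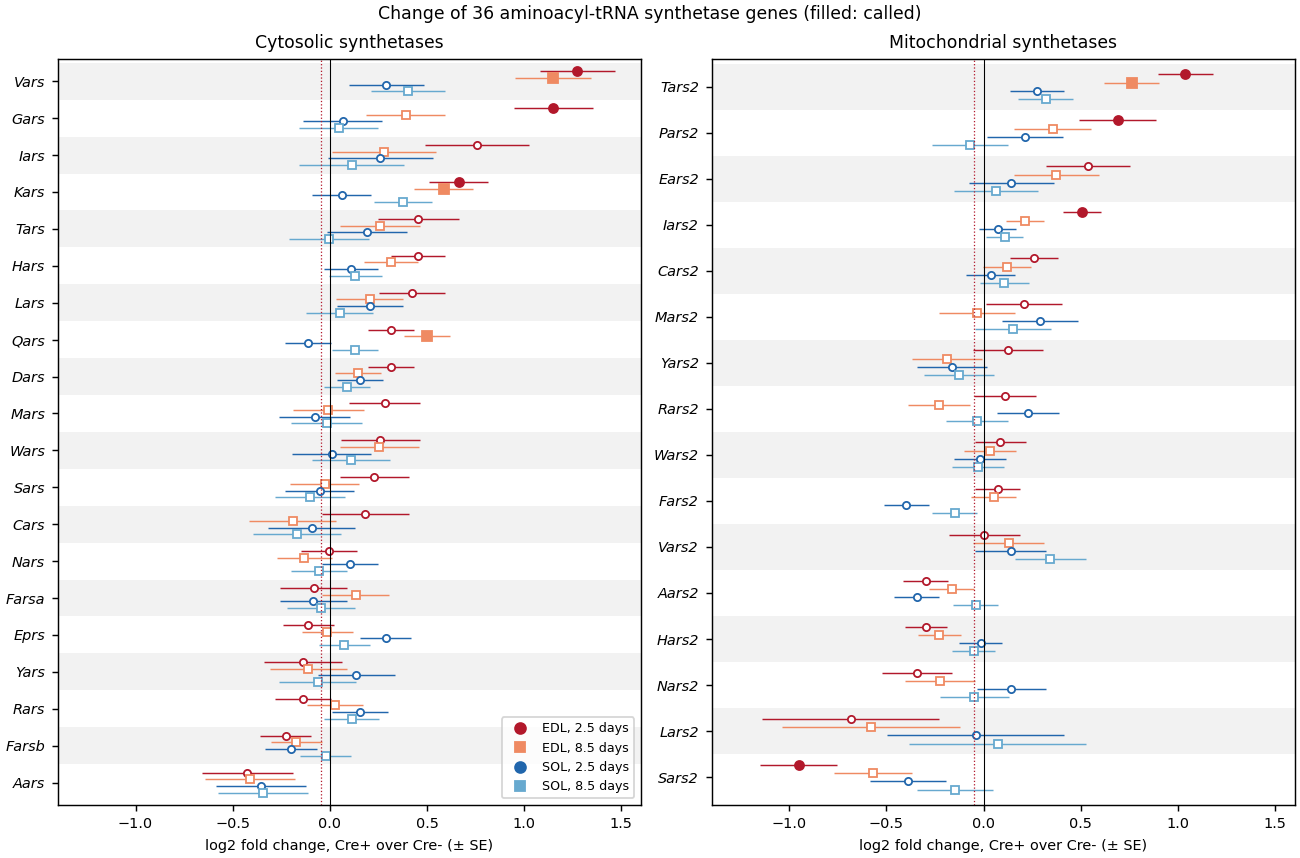
Log2 change from Cre- to Cre+ (x axis) of each of the 36 synthetase genes (y axis) in EDL and SOL at 2.5 and 8.5 days, as point and standard error, with filled points for changes that passed the test and a dotted line at the median of all genes in EDL at 2.5 days. Vars is the gene farthest to the right in EDL on both days, Sars2 is farthest to the left at 2.5 days, and no SOL point is filled.

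Among the cytosolic enzymes, Vars, which charges valine tRNA, had the largest rise. Its EDL level was 10.02 and 11.3 RPKM in Cre- and 23.1 and 28.7 in Cre+ at 2.5 days, and 7.08 and 10.7 RPKM in Cre- and 20.9 and 17.8 in Cre+ at 8.5 days. On each day both Cre+ libraries were above both Cre- libraries, with no overlap. The log2 change was 1.27 ± 0.195 (SE, adjusted p = 0.000527) at 2.5 days and 1.15 ± 0.195 (SE, adjusted p = 0.00207) at 8.5 days. Vars was also the least abundant cytosolic synthetase in the controls, at 9.77 ± 1.88 RPKM in EDL (SD, n = 4).

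Kars, the lysine enzyme of both compartments and a member of the complex, stood at 45.6 and 47.4 RPKM in Cre- and 69.4 and 78.5 in Cre+ at 2.5 days. At 8.5 days its EDL level was 44.9 and 55.5 RPKM in Cre- and 77.2 and 71.3 in Cre+. The Cre+ libraries again lay above the Cre- libraries on both days. Its log2 changes were 0.66 ± 0.151 (SE, adjusted p = 0.00605) and 0.59 ± 0.151 (SE, adjusted p = 0.0197). It did not pass at 2.5 days without Cre+ replicate 2 (0.58, adjusted p = 0.0542), nor at 8.5 days without Cre+ replicate 1 (0.53, adjusted p = 0.137) or Cre- replicate 1 (0.45, adjusted p = 0.146).

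Gars, the glycine enzyme of both compartments, was raised at 2.5 days. It measured 34.7 and 39.2 RPKM in Cre- and 65.8 and 99.2 in Cre+ at that time and 27.4 and 44.5 RPKM in Cre- and 46.6 and 46.2 in Cre+ at 8.5 days. At 2.5 days the Cre+ library with more Pou5f1 was also the one with more Gars, an order of 2 libraries that was not tested. At 8.5 days the Cre+ libraries were only just above the higher of the Cre- libraries. Gars had a log2 change of 1.15 ± 0.204 (SE, adjusted p = 0.00133) and then 0.39 ± 0.202 (SE, adjusted p = 0.222), which did not pass. The difference between the days, -0.76, did not pass either, with an adjusted p of 0.431.

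Qars charges glutamine tRNA in the complex. Its level was 40.5 and 42.8 RPKM in Cre- and 53.8 and 50.4 in Cre+ at 2.5 days and 33.0 and 39.9 RPKM in Cre- and 53.2 and 48.5 in Cre+ at 8.5 days. Cre+ was above Cre- on both days without overlap. Qars had a log2 change of 0.31 ± 0.118 (SE, adjusted p = 0.0657) at 2.5 days, which did not pass, and 0.50 ± 0.119 (SE, adjusted p = 0.0131) at 8.5 days, which is at the edge of the threshold on size. Among 9 alternatives, that with no threshold on size could not lose the call. Of the 9, 4 lost it, with log2 changes down to 0.48 (DESeq2's size factors, DESeq2 on the same libraries and the fit of all 24 libraries, each just under that edge, and DESeq2 on the 4 libraries alone, 0.50 with adjusted p = 0.0811). It did not pass without Cre+ replicate 1 (0.44, adjusted p = 0.117) or Cre- replicate 1 (0.38, adjusted p = 0.102).

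**Figure D2:**
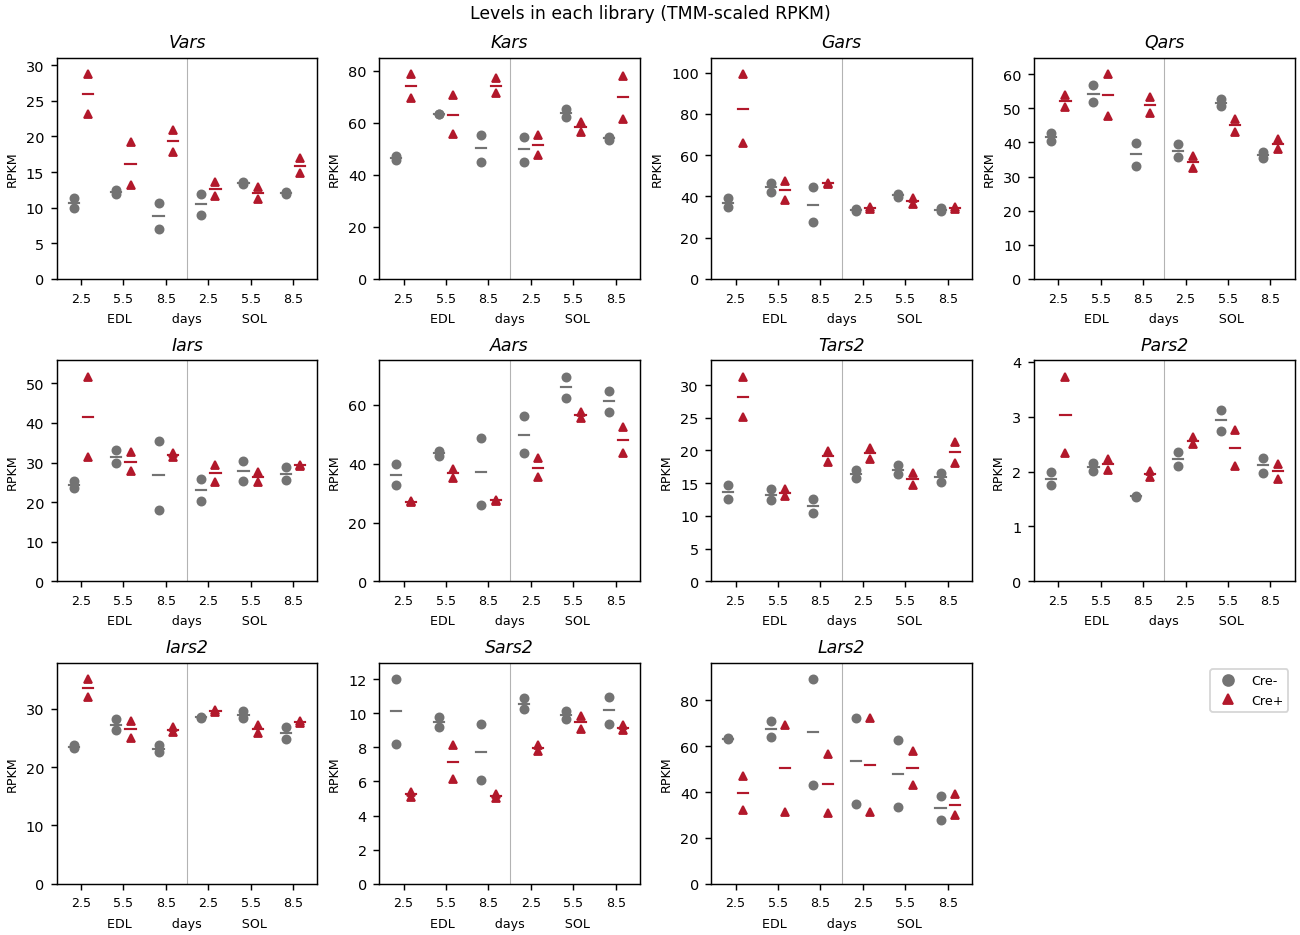
Level in RPKM (y axis, TMM-scaled) of 11 synthetase genes in each EDL and SOL library by genotype and day. In EDL the Cre+ points of Vars, Kars and Tars2 lie above the Cre- points at 2.5 and 8.5 days, and the Lars2 points of several groups lie far apart. Short lines mark the mean of each pair.

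The other 16 cytosolic synthetases passed on neither day in EDL, and their values follow, the genes with the higher log2 changes first. Iars, for isoleucine, measured 23.5 and 25.3 RPKM in Cre- and 31.4 and 51.7 in Cre+ at 2.5 days and 18.1 and 35.6 RPKM in Cre- and 32.4 and 31.5 in Cre+ at 8.5 days. The first day showed Cre+ above Cre-, with a log2 change of 0.76 ± 0.269 (SE, adjusted p = 0.0533), and on the second the Cre- libraries lay on either side of the Cre+ ones, with 0.28. Iars passed at 2.5 days with DESeq2 on the same libraries, and Iars, Hars, Lars and Tars passed in edgeR without Cre+ replicate 1, at 1.07, 0.65, 0.70 and 0.72. Hars, for histidine, which shares 195 exon bases with Hars2 on the opposite strand, measured 21.5 and 23.4 RPKM in Cre- and 26.2 and 35.5 in Cre+ and then 20.2 and 22.2 RPKM in Cre- and 25.0 and 27.0 in Cre+; its log2 change at 2.5 days, 0.45 ± 0.138 (SE, adjusted p = 0.0274), was under the threshold on size. Tars, for threonine, measured 22.7 and 25.4 RPKM in Cre- and 26.4 and 39.9 in Cre+ and then 17.8 and 28.8 RPKM in Cre- and 26.3 and 28.4 in Cre+, with log2 changes of 0.46 and 0.26. These genes, like Vars and Gars, had their highest EDL value of the 2.5-day libraries in Cre+ replicate 2.

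Lars, the leucine enzyme of the complex, measured 15.1 and 15.1 RPKM in Cre- and 15.9 and 24.8 in Cre+ and then 12.8 and 15.3 RPKM in Cre- and 15.4 and 16.5 in Cre+. Dars, for aspartate, measured 34.5 and 34.7 RPKM in Cre- and 38.2 and 48.1 in Cre+ and then 34.9 and 32.6 RPKM in Cre- and 35.5 and 38.1 in Cre+. Mars, for methionine, whose mRNA shares 68 exon bases with Ddit3 on the opposite strand, measured 34.9 and 34.0 RPKM in Cre- and 37.3 and 46.8 in Cre+ and then 23.3 and 35.9 RPKM in Cre- and 28.1 and 29.9 in Cre+. The log2 changes of these members of the complex were 0.42, 0.31 and 0.28 at 2.5 days and 0.20, 0.14 and -0.01 at 8.5 days. Wars, the tryptophan enzyme, which interferon also induces, measured 15.5 and 18.6 RPKM in Cre- and 16.2 and 24.9 in Cre+ and then 12.6 and 19.2 RPKM in Cre- and 18.6 and 18.7 in Cre+. Sars, for serine, measured 31.9 and 34.6 RPKM in Cre- and 37.1 and 41.2 in Cre+ and then 24.7 and 39.0 RPKM in Cre- and 30.0 and 31.6 in Cre+. Cars, for cysteine, measured 15.8 and 19.1 RPKM in Cre- and 16.9 and 23.0 in Cre+ and then 12.7 and 22.6 RPKM in Cre- and 14.2 and 16.3 in Cre+. At 8.5 days the Cre- libraries of Mars, Wars, Sars and Cars lay on either side of the Cre+ libraries, and log2 changes of Wars, Sars and Cars were between -0.19 and 0.25.

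The remaining cytosolic genes had log2 changes between -0.42 and -0.01 at 2.5 days with TMM; scaled by library size alone, all of these but Aars (-0.09) were above 0, as was the median of all genes. Nars, for asparagine, measured 49.2 and 49.9 RPKM in Cre- and 42.4 and 56.8 in Cre+ and then 45.2 and 53.4 RPKM in Cre- and 42.4 and 46.3 in Cre+. Eprs, for glutamate and proline, measured 66.6 and 71.0 RPKM in Cre- and 64.5 and 63.3 in Cre+ and then 55.1 and 72.9 RPKM in Cre- and 64.7 and 60.2 in Cre+. Rars, for arginine, measured 29.9 and 32.9 RPKM in Cre- and 24.8 and 32.5 in Cre+ and then 25.5 and 29.5 RPKM in Cre- and 25.9 and 29.2 in Cre+. The most abundant cytosolic synthetases, Eprs and Nars, had log2 changes of -0.11 and -0.01 at 2.5 days. Farsa and Farsb encode the catalytic and the partner subunit of the phenylalanine enzyme. Farsa measured 14.7 and 18.9 RPKM in Cre- and 14.1 and 17.8 in Cre+ and then 11.9 and 17.1 RPKM in Cre- and 16.4 and 14.96 in Cre+. Farsb measured 25.4 and 27.6 RPKM in Cre- and 22.0 and 23.4 in Cre+ and then 24.4 and 28.2 RPKM in Cre- and 21.8 and 24.2 in Cre+. Their log2 changes were -0.08 and -0.23 at 2.5 days and 0.13 and -0.17 at 8.5 days. Yars, for tyrosine, measured 21.0 and 25.8 RPKM in Cre- and 18.4 and 24.3 in Cre+ and then 16.6 and 26.7 RPKM in Cre- and 18.7 and 20.8 in Cre+. Aars, for alanine, measured 32.7 and 39.8 RPKM in Cre- and 27.0 and 27.2 in Cre+ and then 25.8 and 48.7 RPKM in Cre- and 27.3 and 27.8 in Cre+. Aars was the cytosolic gene with the lowest log2 change, -0.42 ± 0.234 (SE, adjusted p = 0.199) and -0.41 ± 0.234 (SE, adjusted p = 0.267), and at 8.5 days its Cre- libraries lay far apart, with 1 below and 1 above both Cre+ libraries. Without Cre- replicate 1 Aars fell by 0.79 (adjusted p = 0.023) at 8.5 days, and without Cre- replicate 2 the value was 0.11.

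Taking the 20 cytosolic genes as a sum, EDL held 586 and 637 RPKM in Cre- and 671 and 838 in Cre+ at 2.5 days, and 494 and 678 in Cre- and 641 and 645 in Cre+ at 8.5 days. Cre+ libraries lay above both Cre- libraries for 11 of the 20 cytosolic genes at 2.5 days and below for 3, against 30.9% and 34.2% of all genes; at 8.5 days the counts were 7 and 1, against 25.0% and 28.7%. The 8 enzymes of the complex had a median log2 change of 0.31 at 2.5 days (1 rose, 0 fell) and 0.17 at 8.5 days (2 rose, 0 fell), where 13.8% of all genes rose and 10.2% fell at 2.5 days and 7.63% rose and 6.5% fell at 8.5 days. The median was 0.28 for the 9 class I enzymes and 0.27 for the 10 class II enzymes at 2.5 days, the structural classes into which synthetases divide by their catalytic fold.

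In mitochondria, Tars2, the threonine enzyme, rose on both days. It measured 12.6 and 14.7 RPKM in Cre- and 25.1 and 31.2 in Cre+ at 2.5 days and 10.4 and 12.5 RPKM in Cre- and 20.0 and 18.3 in Cre+ at 8.5 days. Both Cre+ libraries were above both Cre- libraries on each day. For Tars2 the log2 changes were 1.04 ± 0.142 (SE, adjusted p = 0.000256) and 0.76 ± 0.142 (SE, adjusted p = 0.00359), and its promoter, shown above, holds neither sequence searched.

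Pars2, the mitochondrial proline enzyme, measured 1.75 and 1.99 RPKM in Cre- and 2.35 and 3.73 in Cre+ at 2.5 days and 1.56 and 1.54 RPKM in Cre- and 1.90 and 2.02 in Cre+ at 8.5 days, and so was among the least abundant synthetases. Its log2 change was 0.69 ± 0.196 (SE, adjusted p = 0.02) at 2.5 days and 0.35 at 8.5 days. With 1 EDL library of 2.5 days left out it passed only without Cre+ replicate 1 (0.98), and it was 0.33 without Cre+ replicate 2, 0.60 without Cre- replicate 1 and 0.78 without Cre- replicate 2. Iars2, for isoleucine, measured 23.7 and 23.3 RPKM in Cre- and 32.0 and 35.1 in Cre+ and then 23.8 and 22.5 RPKM in Cre- and 26.8 and 26.0 in Cre+. Its Cre- libraries lay close together and below the Cre+ libraries on both days. The log2 change was 0.51 ± 0.0962 (SE, adjusted p = 0.00201) at 2.5 days, at the edge of the threshold on size, and 0.21 at 8.5 days; it was under that edge without Cre+ replicate 2 (0.45) or Cre- replicate 2 (0.49). Exons of Iars2 share 2034 bases with Rab3gap2 on the opposite strand, and the strand setting of the counting is not given in the sources used here, so their reads may not be told apart.

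Sars2, for serine, went the other way. Its level was 8.21 and 12 RPKM in Cre- and 5.38 and 5.10 in Cre+ at 2.5 days and 6.11 and 9.36 RPKM in Cre- and 5.01 and 5.25 in Cre+ at 8.5 days. Cre+ was below Cre- on both days, and the Cre- libraries themselves were spread widely. Sars2 had a log2 change of -0.95 ± 0.200 (SE, adjusted p = 0.00368) at 2.5 days and -0.57 ± 0.200 (SE, adjusted p = 0.0728) at 8.5 days, which did not pass. The fall did not pass at 2.5 days without Cre- replicate 2 (-0.66, adjusted p = 0.0546), and passed at 8.5 days without Cre- replicate 1 (-0.84, adjusted p = 0.023). Cre+ was above Cre- for 5 of the 16 mitochondrial genes and below for 5 at 2.5 days, and above for 5 and below for 4 at 8.5 days, near the shares over all genes given for the cytosolic counts. The other 11 mitochondrial genes apart from Lars2 had EDL log2 changes from -0.34 (Nars2) to 0.54 (Ears2, adjusted p = 0.0849) at 2.5 days and from -0.23 to 0.37 at 8.5 days. Without Lars2 the mitochondrial genes summed to 125 and 139 RPKM in Cre- and 144 and 165 in Cre+ EDL at 2.5 days, and to 117 and 125 in Cre- and 124 and 127 in Cre+ at 8.5 days.

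Lars2, the mitochondrial leucine enzyme, varied most between libraries of 1 group. In EDL it measured 63.5 and 63.0 RPKM in Cre- and 32.2 and 46.9 in Cre+ at 2.5 days and 89.2 and 43.1 RPKM in Cre- and 30.8 and 56.5 in Cre+ at 8.5 days; in SOL it measured 34.8 and 72.3 RPKM in Cre- and 72.1 and 31.1 in Cre+ and then 38.1 and 27.8 RPKM in Cre- and 39.0 and 29.9 in Cre+. The higher library of a group exceeded the lower by a median ratio of 1.64 over the 12 groups, with 2.32 as the largest and 6 groups over 1.5, while the median ratio was at most 1.16 for every other synthetase. The log2 change of -0.68 in EDL at 2.5 days had an adjusted p of 0.291. Of 12676 genes compared over the 24 libraries, those whose pattern was most like that of Lars2 were Mir6236 (Pearson's r = 0.977, Spearman's rho = 0.959) and Rn45s, the precursor of ribosomal RNA (r = 0.919, rho = 0.904), with Slirp next at r = 0.71. EDL and SOL libraries of 1 number may share a mouse, and both genes were looked at after the Lars2 values were seen. Without the 2 libraries farthest from the median, r was 0.971 for Mir6236 and 0.893 for Rn45s, and within the 12 EDL and the 12 SOL libraries it was 0.992 and 0.965 for Mir6236 and 0.871 and 0.95 for Rn45s. Rn45s ranged from 1383 to 6145 CPM and Mir6236 from 44.81 to 228.9 CPM across the libraries, beside 112.8 to 337.4 CPM of Lars2. The part of ribosomal RNA reads in the Lars2 values was not tested.

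**Figure D3:**
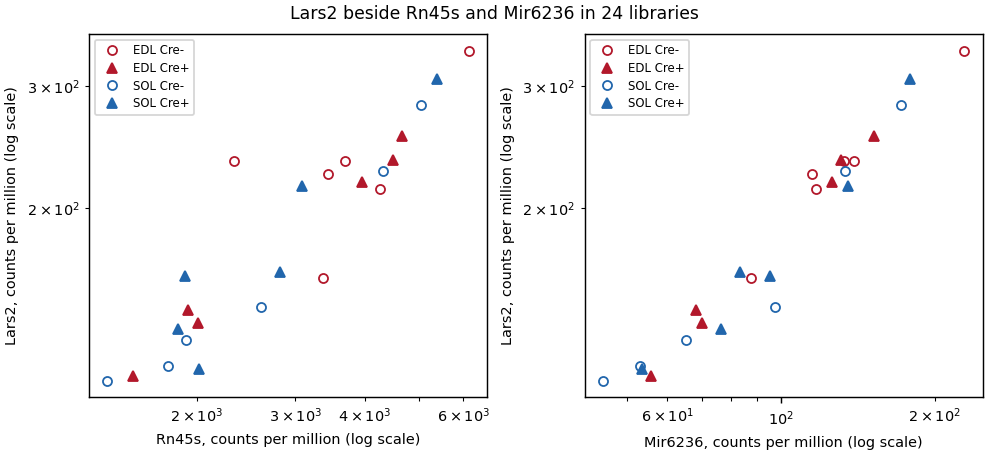
Lars2 (y axis, CPM, log scale) against Rn45s and Mir6236 (x axes, CPM, log scale) in the 24 libraries, marked by muscle and genotype. Lars2 goes up with both genes, more tightly with Mir6236, and the libraries of each muscle and genotype are spread over much of the range.

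The Cre- EDL libraries of 8.5 days differed from each other in the cytosolic synthetases. Replicate 2 exceeded replicate 1 by over 1.5 times for 10 of the 20 cytosolic genes (50%, median ratio 1.47), for 1 of the 16 mitochondrial genes (6.25%, median 1.05) and for 788 of 12300 genes over 1 CPM in both (6.41%, median 1.01). The ratio was 1.97 for Iars, 1.89 for Aars, 1.78 for Cars, 1.62 for Gars, 1.62 for Tars and 1.61 for Yars, then 1.58 for Sars, 1.54 for Mars, 1.52 for Wars and 1.51 for Vars. All 5 cytosolic genes whose promoter holds TGATGNAA (Aars, Gars, Iars, Tars and Yars) were among these first 6, which was noticed after the ratios were seen and leaves out the 7 cytosolic genes with no promoter entry. Of 23 genes on the Atf4 list, 6 exceeded a ratio of 1.5 (26.1%), and the median ratio of the list was 1.15. Among the others, Atf4 itself had 1.13 and Ddit3 0.947, while Vldlr and Slc7a11 were lower in replicate 2, at 0.576 and 0.395. The cause of the difference between the replicates was not tested. The 8.5-day calls depended on which of the pair served as control. Without replicate 2, 6 cytosolic genes rose, with log2 changes of 1.47 for Vars, 0.84 for Iars, 0.77 for Gars, 0.74 for Kars, 0.64 for Qars and 0.64 for Tars. Without replicate 1, Vars rose by 0.89 and Aars fell by 0.79, and Kars and Qars did not pass. Vars and Tars2 rose with either control library left out.

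In SOL no synthetase passed on either day, where 0.384% of all genes did at 2.5 days and 0.631% at 8.5 days; 3 and 2 of the 36 had an unadjusted p under 0.05 (13.4% and 6.6% of all genes), and DESeq2 called 0 on both days. Over both days 1.47% of all genes and 0 of 36 synthetases passed (4 at an unadjusted p under 0.05, beside 16.3% of all genes, and 0 with DESeq2). Over both days the highest SOL log2 changes were those of Vars and Tars2. Vars in SOL measured 11.9 and 8.99 RPKM in Cre- and 13.7 and 11.6 in Cre+ at 2.5 days and 12.2 and 11.97 RPKM in Cre- and 16.9 and 14.9 in Cre+ at 8.5 days, and its log2 change over both days was 0.35 ± 0.136 (SE, adjusted p = 0.233). Tars2 measured 16.99 and 15.8 RPKM in Cre- and 20.4 and 18.8 in Cre+ and then 15.2 and 16.5 RPKM in Cre- and 21.3 and 18.1 in Cre+, with 0.30 ± 0.0994 (SE, adjusted p = 0.161). On each day the Cre+ libraries of Tars2 were above its Cre- libraries, while those of Vars overlapped at 2.5 days. Kars measured 54.7 and 45.0 RPKM in Cre- and 55.1 and 47.6 in Cre+ and then 54.5 and 53.4 RPKM in Cre- and 78.0 and 61.5 in Cre+, and Sars2 10.2 and 10.9 RPKM in Cre- and 8.16 and 7.80 in Cre+ and then 9.40 and 10.97 RPKM in Cre- and 9.02 and 9.31 in Cre+. Log2 changes of all 36 genes in SOL lay between -0.40 and 0.40. Pou5f1 was also lower in Cre+ SOL than in Cre+ EDL, at 4.54 and 8.63 RPKM at 2.5 days and 11.4 and 6.09 at 8.5 days. Pou5f1 and Sox2 passed in SOL on both days. Myc passed on neither single day (log2 changes 2.18, adjusted p = 0.0971, and 2.37, adjusted p = 0.056) but did over both days. Klf4 did not pass in SOL, with log2 changes of 0.08 and -0.04.

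The difference between the muscles was tested directly. At 2.5 days the EDL change exceeded the SOL change by 1.09 ± 0.287 (SE, adjusted p = 0.0533) for Gars, 0.98 ± 0.272 (SE, adjusted p = 0.0603) for Vars and 0.76 ± 0.199 (SE, adjusted p = 0.0505) for Tars2, all just short of the threshold. No synthetase passed, against 4.25% of all genes, with 7 of 36 at an unadjusted p under 0.05 (21.0% of all genes) and 5 called by DESeq2 (Gars, Kars, Vars, Fars2 and Tars2). Without EDL Cre+ replicate 1 the differences of Gars, Vars and Tars2 passed, at 1.34, 1.12 and 0.90. The labels do not name the mouse, but EDL and SOL libraries of 1 number, genotype and day deviated together. When these were assumed to share a mouse and mouse was used as a block, Gars passed with a difference of 1.06 (adjusted p = 0.0369) and Tars2 with 0.76 (adjusted p = 0.0464). At 8.5 days 0 of 36 and 0.592% of all genes passed (3 of 36 at an unadjusted p under 0.05, beside 11.2% of all genes, 0 with DESeq2, 0 with the mouse block). Between 2.5 and 8.5 days the EDL change did not pass for any of the 36 or for any of the 15372 genes (0%); 1 synthetase, Gars, had an unadjusted p under 0.05, beside 9.56% of all genes, and DESeq2 called 0.

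At 5.5 days, when Pou5f1 and Sox2 passed in EDL but none of the 4 factors in SOL, 0 of 36 synthetases passed in EDL (0.304% of 15478 genes) and 0 of 36 in SOL (0% of genes). In EDL 2 and in SOL 1 had an unadjusted p under 0.05, as did 8.44% and 3.86% of all genes, and DESeq2 called 0 in both. The cytosolic genes lay lower in Cre+ than in Cre- more often than higher. Both Cre+ libraries were below both Cre- libraries for 17 of the 20 cytosolic genes in SOL and above for 0, where all genes gave 18% below and 18% above. In EDL 9 were below and 1 above, where all genes gave 21.1% and 16.3%. Summed over the 20 genes, SOL held 724 and 741 RPKM in Cre- and 650 and 683 in Cre+, and EDL 729 and 752 in Cre- and 643 and 731 in Cre+. These Cre- sums were above those of Cre- at 2.5 and 8.5 days, which ran from 545 to 634 in SOL and 494 to 678 in EDL. The Cre+ sums of those days ran from 582 to 626 in SOL, below the 5.5-day ones, and from 641 to 838 in EDL. The cause of the high Cre- sums at 5.5 days was not tested. Vars, the 1 cytosolic gene above in EDL, measured 11.9 and 12.4 RPKM in Cre- and 13.1 and 19.2 in Cre+ there and 13.3 and 13.6 RPKM in Cre- and 11.2 and 12.8 in Cre+ in SOL. Its highest EDL value was in Cre+ replicate 2, the library with 29.4 RPKM of Pou5f1, and the other Cre+ library lay close to the controls. A relation of Vars to Pou5f1 was not tested.

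The order of the synthetases was similar in both control muscles. In Cre- EDL the cytosolic genes ran from Eprs, at 66.4 ± 7.96 RPKM (SD, n = 4, also below), through Nars, 49.4 ± 3.33, Kars, 48.4 ± 4.84, and Qars, 39.1 ± 4.24, down to Lars, 14.6 ± 1.2, and Vars, 9.77 ± 1.88. The ranges of neighbors in this order overlapped, except between Eprs and Nars, Kars and Qars, and Lars and Vars. Most mitochondrial enzymes were lower, and after Lars2, at 64.7 ± 18.9, they ran from Iars2, 23.3 ± 0.571, Fars2, 15.5 ± 1.15, and Tars2, 12.6 ± 1.77, to Pars2, 1.71 ± 0.208, and Ears2, 1.62 ± 0.160. In Cre- SOL, Eprs at 60.2 ± 4.15 and Lars2 at 43.2 ± 19.9 again headed the classes, and Vars at 11.3 ± 1.53 and Ears2 at 1.75 ± 0.184 closed them. The rank of Lars2 in both muscles rests on values that went up and down with Rn45s and Mir6236, as given above. Aars had rank 5 of the cytosolic genes in EDL and rank 2 in SOL.

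**Figure D4:**
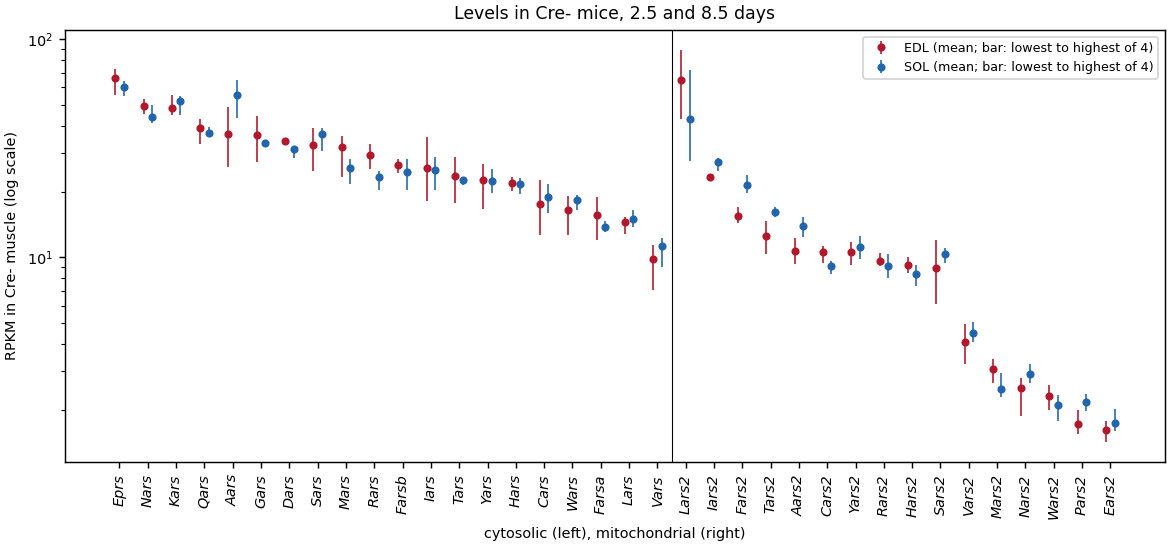
Level in RPKM (log scale, TMM-scaled) of the 36 synthetases in Cre- EDL and Cre- SOL, as the mean of the 4 libraries of 2.5 and 8.5 days with a bar from the lowest to the highest. The muscles run in nearly the same order, most mitochondrial genes lie below the cytosolic ones, and Lars2 has the longest bars.

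Aars was the only synthetase that passed between EDL and SOL of Cre- mice. It measured 32.7, 39.8, 25.8 and 48.7 RPKM in EDL and 56.2, 43.6, 57.7 and 64.7 in SOL (2 libraries of 2.5 days, then 2 of 8.5 days). The highest EDL library was above the lowest SOL library, so the ranges overlapped. EDL was lower than SOL by a log2 difference of -0.57 ± 0.165 (SE, adjusted p = 0.019), and with mouse as a block Aars was again the only one. It did not pass without EDL replicate 1 of 2.5 days (-0.50), EDL replicate 1 of 8.5 days (-0.38), SOL replicate 1 of 2.5 days (-0.47) or SOL replicate 2 of 8.5 days (-0.52). Among all genes 21.9% passed and 11.1% were lower in EDL; 10 of the 36 synthetases had an unadjusted p under 0.05, beside 41.7% of all genes. Exons of Aars share 1326 bases with Exosc6 on the same strand, so part of its count may belong to that gene. In both muscles the Cre+ values of Aars were below those of Cre- at 2.5 days, at 56.2 and 43.6 RPKM in Cre- and 35.3 and 41.8 in Cre+ in SOL, and the SOL log2 changes were -0.35 and -0.34, neither of which passed.

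Genes that work with the synthetases were examined from lists of known roles. Of the scaffold genes of the multi-synthetase complex, Aimp2 fell in EDL on both days and Eef1e1 rose at 2.5 days. Aimp2 measured 152 and 267 RPKM in Cre- and 56.6 and 63.2 in Cre+ in EDL at 2.5 days and 102 and 134 RPKM in Cre- and 44.5 and 52.5 in Cre+ at 8.5 days. All Cre+ libraries lay below all Cre- libraries, and near the 35.4 to 51.0 RPKM of SOL at these days. The log2 change was -1.81 ± 0.232 (SE, adjusted p = 0.000174) at 2.5 days and -1.26 (adjusted p = 0.00308) at 8.5 days, and its difference from SOL at 2.5 days was -1.59 (adjusted p = 0.0184). In Cre- mice Aimp2 was higher in EDL than in SOL by 1.88 on the log2 scale. Exons of Aimp2 share 487 bases with Eif2ak1 on the opposite strand. Eef1e1 rose at 2.5 days by 1.13 (adjusted p = 0.00837), at 13.1 and 13.8 RPKM in Cre- and 17.8 and 41.4 in Cre+, with most of the rise in 1 library. At 8.5 days the log2 change of Eef1e1 was 0.38 (adjusted p = 0.38), which did not pass. Aimp1 had log2 changes of -0.09 and -0.25 and did not pass, so 1 of the 3 scaffold genes rose and 1 fell at 2.5 days.

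In the glutamine route of mitochondria, Qrsl1, the catalytic subunit of the amidotransferase, fell on both days while Gatb and Gatc did not pass. Qrsl1 measured 11.5 and 13.4 RPKM in Cre- and 7.20 and 6.67 in Cre+ in EDL at 2.5 days and 11.9 and 12.2 RPKM in Cre- and 6.92 and 8.20 in Cre+ at 8.5 days. The groups did not overlap on either day. The log2 change was -0.85 ± 0.134 (SE, adjusted p = 0.000617) and -0.65 ± 0.133 (SE, adjusted p = 0.0061). Ears2, which charges glutamate in the step before, had 0.54 and 0.37 without passing. None of the 4 genes that correct mischarged tRNAs passed in EDL, where 24% of all genes did at 2.5 days and 14.1% at 8.5 days. At 2.5 days Dtd1 (0.49, adjusted p = 0.0324) and Aarsd1 (-0.39, adjusted p = 0.043) were under the threshold on size only. Mtfmt, which formylates the initiator methionyl-tRNA of mitochondria, did not pass either (log2 changes 0.30 and -0.15).

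**Figure D5:**
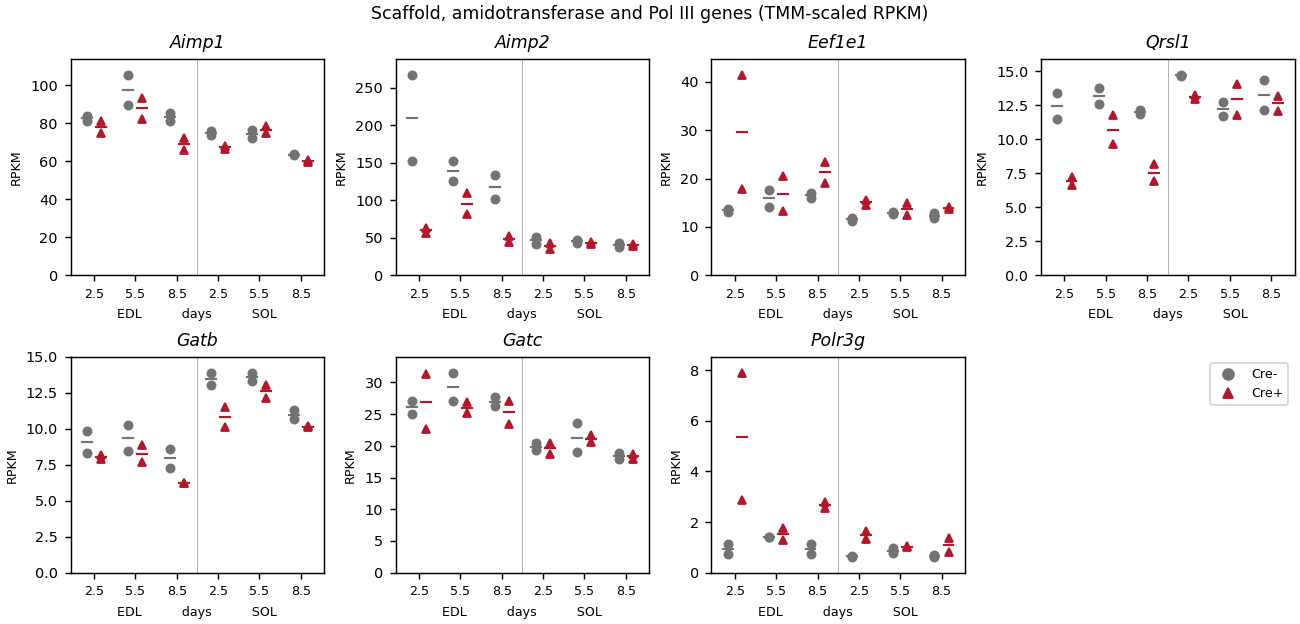
Level in RPKM (y axis, TMM-scaled) of the scaffold genes Aimp1, Aimp2 and Eef1e1, the amidotransferase genes Qrsl1, Gatb and Gatc, and Polr3g in each EDL and SOL library by genotype and day. In EDL the Cre+ points of Aimp2 and Qrsl1 lie below and those of Polr3g above the Cre- points at 2.5 and 8.5 days.

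Genes that make and process tRNA were counted from 3 lists, beside 13.8% of all genes that rose and 10.2% that fell at 2.5 days, and 7.63% and 6.5% at 8.5 days. Of 24 genes of RNA polymerase III and its factors, which transcribe tRNA genes, 7 rose and 0 fell at 2.5 days and 4 rose and 0 fell at 8.5 days (median log2 change 0.31 and 0.19). The subunit Polr3g rose by 2.53 and 1.56, Polr3b by 1.27 and 0.71, and Polr3c by 1.18 at 2.5 days. Of 48 genes that modify tRNA bases, 10 rose and 2 fell at 2.5 days and 8 rose and 1 fell at 8.5 days. Among them Pus1, a pseudouridine synthase, rose by 1.51 at 2.5 days, and the methyltransferase genes Nsun2, Trmt61a and Mettl1 rose by 1.33, 1.24 and 1.06. Of 23 genes that trim, splice or export tRNA, 3 rose and 1 fell at 2.5 days, and 0 rose and 1 fell at 8.5 days. The RNase P subunit genes Pop1 and Rpp40 rose by 1.63 and 1.27, and Rpp25l fell by 0.83.

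On the list of Atf4 and its known targets, 6 genes rose and 6 fell among 24 tested at 2.5 days, where 13.8% of all genes rose and 10.2% fell. At 8.5 days 2 rose and 6 fell, where 7.63% of all genes rose and 6.5% fell. Psat1, of serine synthesis, rose by 2.78 at 2.5 days, Slc7a5, a leucine transporter, by 1.67, Asns, which makes asparagine, by 1.65, and Mthfd2, of the folate cycle in mitochondria, by 1.51. Cth, of cysteine synthesis, fell by 1.38. Atf4 itself had log2 changes of -0.23 and -0.28 and did not pass, Ddit3 fell by 0.72 (adjusted p = 0.00517) at 2.5 days, and Asns had 0.16 at 8.5 days. Interferon genes, a list held beside Wars, had log2 changes above 0 for 5 of 15 at 2.5 days in EDL (median -0.12) and for 15 of 15 at 8.5 days (median 0.41), and 0 of 15 passed on either day.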

How the data were processed

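Poly(A) RNA of whole EDL and SOL muscle was sequenced as stranded single-end libraries. The deposited values are raw counts: the authors aligned reads to mm10 with STAR 2.5.3a and used HOMER to count uniquely aligned reads on RefSeq exons (FastQC 0.11.2 for read quality); nothing was normalized. The annotation's gene lengths served for RPKM.

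Counts were tested here with edgeR 4.0.16 (R 4.3.3) by the quasi-likelihood test after TMM scaling, on the 16 libraries of 2.5 and 8.5 days in 8 groups, for 15372 genes kept by filterByExpr with a minimum count of 10. The 5.5-day groups, which the study left out, were taken from a fit of all 24 libraries (15478 genes). A call needed a Benjamini-Hochberg adjusted p under 0.05 and a log2 change over 0.5 in size, the thresholds of the study. With 2 libraries against 2, an exact permutation test cannot go below 0.333, so no single-gene permutation test was run. Per the paper, the 2 libraries of a group are independent biological samples; p-values rest on the spread of such pairs. Within each group the 2 libraries differed by more than counting noise.

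EDL and SOL libraries of the same number, genotype and day deviated together (correlations of 0.173 to 0.445 in all 6 pairs), so a mouse block was tried for comparisons between muscles. The labels do not say whether such libraries share a mouse, so this block is an assumption. Cre+ and Cre- libraries of the same number did not deviate together (-0.169 to 0.0578). Alternatives were DESeq2 1.42.0, other scalings, filters and thresholds, blocks, and leaving out each library. The fits were tested on simulated data.

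Synthetases named with values in every EDL library were, by rule, cytosolic and mitochondrial genes called on both days, genes called against the direction of their class, and cytosolic genes called on neither day; Gars, Qars, Pars2, Iars2 and Lars2 were added after their values were seen, and for most genes SOL is given only as the range of log2 changes over all 36 and 5.5 days only as counts. From each partner list the 4 called genes with the largest EDL change at 2.5 days are named, with Atf4, Ddit3 and Asns by rule and Cth added after its value was seen, and 1 such gene is not reported here. The members and lists were chosen with earlier results of these data known. Promoters were taken from RefSeq (GRCm38.p6) and exon overlaps from GENCODE vM21. The self-made scripts used Python 3.11.15 and pandas 2.3.3.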

Additional observations from a re-analysis of the deposited data

How the results depend on the processing

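Of the counts of called synthetases, 186 values under other settings were the same and 23 moved. Most of the 186 were counts of 0 that stayed 0, and other counts were the same if within 1.5 times. In EDL the same were 11 of 13 for cytosolic genes on each day. For mitochondrial genes they were 11 of 13 at 2.5 days and 10 of 13 at 8.5 days. Between EDL and SOL of Cre- mice they were 10 of 16. For the difference between muscles at 2.5 days, where 0 was reported, they were 8 of 16. Of the log2 changes of called synthetases, 139 kept their direction and call, 20 lost the call and 0 reversed. The setting with no threshold on size could not lose such a call. In EDL at 2.5 days the 3 cytosolic calls became 12 with library size alone and 2 to 7 when 1 library was left out (7 without Cre+ replicate 1), and the 4 mitochondrial calls became 1 to 5 (2 without Cre+ replicate 2, 1 without Cre- replicate 2). In EDL at 8.5 days the 3 cytosolic calls became 1 to 6 (1 without Cre+ replicate 1, 6 without Cre- replicate 2), and the 1 mitochondrial call became 2 with DESeq2 on the same libraries and with all 24 libraries fitted, and 1 to 2 when 1 library was left out (2 without Cre- replicate 1), with Sars2 as the second gene. For the difference between muscles at 2.5 days, 0 calls became 2 with DESeq2's size factors, 5 with library size alone, 5 with DESeq2, 2 with no filter, 2 with at least 10 counts in every library, 3 with all 24 libraries, and 0 to 4 when 1 library was left out (4 without EDL Cre+ replicate 1). Between EDL and SOL of Cre- mice the 1 call became 2 with library size alone, 6 with no threshold on size, and 0 to 1 when 1 library was left out. With mouse as the replicate block the difference between muscles at 2.5 days had 2 calls; blocking Cre+ and Cre- by replicate number, which did not pair them, left 7 calls at 2.5 days and 4 at 8.5 days in EDL. The other comparisons had 0 calls under every setting run. The cause of these moves was not tested. Where a library was left out, the lone library of its group was assumed to vary like the others. With 2 libraries a group, synthetase changes near the threshold depended on single libraries.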
